A study of Rattus norvegicus with 38 samples.

Results

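Interferon-stimulated genes were followed in the livers of rats given lipopolysaccharide (LPS), extracts named only EF, PF and RD, or both. The members are 36 genes listed by symbol. Of these, 35 were found among the 31038 genes of the count table and all 35 passed the filter on low counts, while Xaf1 was not analysed here. They comprise 5 transcription factors, 4 nucleic acid sensors, 4 oligoadenylate synthetase (OAS) genes, 10 antiviral effectors, 7 genes of ISG15, ubiquitin and ADP-ribose modification, 2 guanylate-binding proteins and 3 others.

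The series holds 38 liver libraries in 8 groups, all from Sprague-Dawley rats, an outbred laboratory strain, killed on day 28. The 4 groups without LPS were control (n = 5, no extract), EF (n = 5), EF_PF (n = 5, EF with PF) and EF_RD (n = 4, EF with RD). The 4 groups injected with LPS into the peritoneal cavity were LPS (n = 5, no extract), LPS_EF (n = 5), LPS_EF_PF (n = 4) and LPS_EF_RD (n = 5). Extracts went into the stomach, with EF and PF at 2.5 g/kg and RD at 200 mg/kg. How much LPS was injected, and how long before the livers were taken, is not given in the sources used here, nor are the animals' ages. PF and RD were each given only on top of EF, so no group shows either alone. The series' design text calls the libraries biological replicates without naming the animals, and if some are not separate animals, p-values measure only the spread between these samples. LPS, a component of the outer membrane of gram-negative bacteria, is widely used to model acute inflammation.

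Interferons are secreted proteins that warn cells of infection. Type I interferons signal through a complex that includes STAT2 and IRF9, which binds the interferon-stimulated response element (ISRE) in target promoters. Type II interferon, interferon gamma, acts on gamma-activated sites (GAS), and IRF1 and IRF8 are classical products of that branch. In the liver, hepatocytes and resident macrophages (Kupffer cells) both respond. LPS is sensed by TLR4 and CD14, and one arm of TLR4 signalling leads to interferon beta.

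The promoters of the members that the results turn on are shown first, because both motifs occur in genes that later moved in opposite directions. Windows of 300 bases, from 250 before to 50 after the annotated gene start, were available for 25 of the 35 members (RefSeq, build GRCr8). The ISRE was searched as GAAA, any 2 bases, GAAA, and the GAS as TTC, any 3 bases, GAA, each on both strands with overlapping matches allowed. An ISRE match was found in 13 of the 25 windows (52%) and in 1034 of all 27457 windows (3.77%). A GAS match was found in 6 of the 25 (24%) and in 2382 of all windows (8.68%), and 3 members held both. A match is a string of letters, and binding was not measured.

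The 250 bases upstream of Gbp2, the member with the largest rise after LPS (chr2:234005477-234005726, GRCr8, plus strand), and of Oas1a, the member with the largest fall in the LPS group against control (chr12:41330216-41330465, plus strand), are given 5′ to 3′ with ISRE and GAS matches in capitals. Gbp2 holds 1 ISRE match, read on its reverse strand. Oas1a holds 1 GAS match and 2 overlapping ISRE matches that form 1 run.
Gbp2: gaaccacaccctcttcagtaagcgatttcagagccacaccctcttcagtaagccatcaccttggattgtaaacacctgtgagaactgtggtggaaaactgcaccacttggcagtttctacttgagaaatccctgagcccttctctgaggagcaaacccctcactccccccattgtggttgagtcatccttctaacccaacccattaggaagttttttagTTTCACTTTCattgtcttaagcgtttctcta
Oas1a: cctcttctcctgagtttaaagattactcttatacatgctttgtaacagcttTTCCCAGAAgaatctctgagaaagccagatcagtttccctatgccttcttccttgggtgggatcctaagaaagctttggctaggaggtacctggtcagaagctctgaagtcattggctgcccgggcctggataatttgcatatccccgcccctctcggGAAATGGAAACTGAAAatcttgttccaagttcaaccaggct

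Shorter stretches are given for other members whose values are described below, with 10 bases on either side of the match. GAS matches stand upstream of Irf1 (chr10:38417783-38417811), of Irf8 (2 matches, the one shown at chr19:65699094-65699122) and of Irf9 (chr15:33065727-33065755), all on the plus strand. ISRE matches stand upstream of Irf7 (chr1:205800073-205800102, minus strand), Ifi44 (chr2:243303847-243303876, minus strand, with a second match after the gene start) and Ifih1 (chr3:67684008-67684037, minus strand). Bst2 holds a GAS match and 2 ISRE matches in 1 run, each overlapping the next (chr16:18255073-18255114, minus strand), and the Parp14 stretch is its ISRE match (chr11:78408048-78408077, plus strand), with a separate GAS match nearby.
Irf1, GAS: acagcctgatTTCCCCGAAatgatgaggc
Irf8, GAS: cagaagtgatTTCTCGGAAaggcgagcgc
Irf9, GAS: accacgtgatTTCTAGGAActgcacctcc
Irf7, ISRE: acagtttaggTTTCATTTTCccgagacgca
Ifi44, ISRE: gcacactgagTTTCAGTTTCatttcccagg
Ifih1, ISRE: gaagagaatcGAAACAGAAAccgatgtgtg
Bst2, GAS and ISRE: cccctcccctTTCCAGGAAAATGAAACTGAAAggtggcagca
Parp14, ISRE: tccaggaaatGAAAGTGAAAgaagtaagtt

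Several libraries stood apart and are named before the results. Libraries are called by group and replicate number. The summed level of 15 exocrine pancreas markers was 3461 CPM (TMM-scaled counts, relative to library size) in control 5, 1994 in LPS 3 and 127 in EF_RD 1, and at most 21.9 in the other libraries. The summed level of 15 skeletal muscle markers was 4681 CPM in EF_RD 1 and 466 in LPS 3, and at most 3.12 elsewhere. LPS_EF 7 and LPS_EF_RD 6 were labelled as given LPS, but Cxcl9, a chemokine induced by interferon gamma, stood at 4.75 and 15.6 CPM in them, against 185 to 432 CPM in the other 17 LPS libraries and 5.03 to 15.8 CPM without LPS. Each count of called members is also given below without these 5 libraries where it moved. Hepatocyte markers such as albumin were abundant in all libraries (summed level of 10 markers 130084 to 209852 CPM). Hepatocyte is the labelled cell type, with no separation step described, and markers of Kupffer cells, endothelium and blood cells were present too. Libraries held 19716622 to 35835012 counted read pairs and share 1 batch label.

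Read as TPM, which corrects for gene length, the members spanned a wide range in control. Bst2, which encodes tetherin, an antiviral membrane protein, was the highest at 572 ± 70.5 TPM (SD, n = 5). Next came Ifi35 (50.1 ± 7.03), Parp9 (47.3 ± 6.13) and Stat2 (45.9 ± 9.17), which did not differ from each other beyond their spread. Ddx58 (34.8 ± 5.55), Irf7 (31.1 ± 7.12) and Oas1a (31 ± 6.87) formed the next set, also within their spread. Mean control levels were 10 TPM or more for 18 members, 1 to 10 TPM for 14, and under 1 TPM for Oas2, Zbp1 and Oas3. In the LPS group, Gbp2 moved from rank 24 (6.68 ± 2.04 TPM) to rank 6 (31.8 ± 9.5 TPM), while Oas1a moved from rank 7 to rank 17 (9 ± 4.99 TPM).

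LPS against control asks what LPS did without any extract. In this comparison 3 members rose and 17 fell, and 15 were not called. The members that rose were Gbp2, Irf8 and Irf1. Members that fell included the type I response genes Oas1a, Usp18, Mx1, Mx2 and Irf7. Other type I response genes were not called, among them Isg15, Ifit1, Ifit2, Ifit3, Rsad2 and Cmpk2, and neither was Gbp5. The threshold for a call was 0.05 for the adjusted p of edgeR's quasi-likelihood test, with Benjamini-Hochberg adjustment over 14786 genes. Of all genes tested, 18.6% were called higher and 18.1% lower, against 8.57% and 48.6% of the members. The median log2 fold change was -0.48 over the members and -0.00 over all genes. Scaling by total counts in place of trimmed means moved the median of all genes to 0.13 and that of the members to -0.36, with 3 members higher and 12 lower. In bulk RNA, fewer cells of a type and less RNA per cell cannot be told apart.

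**Figure D1:**
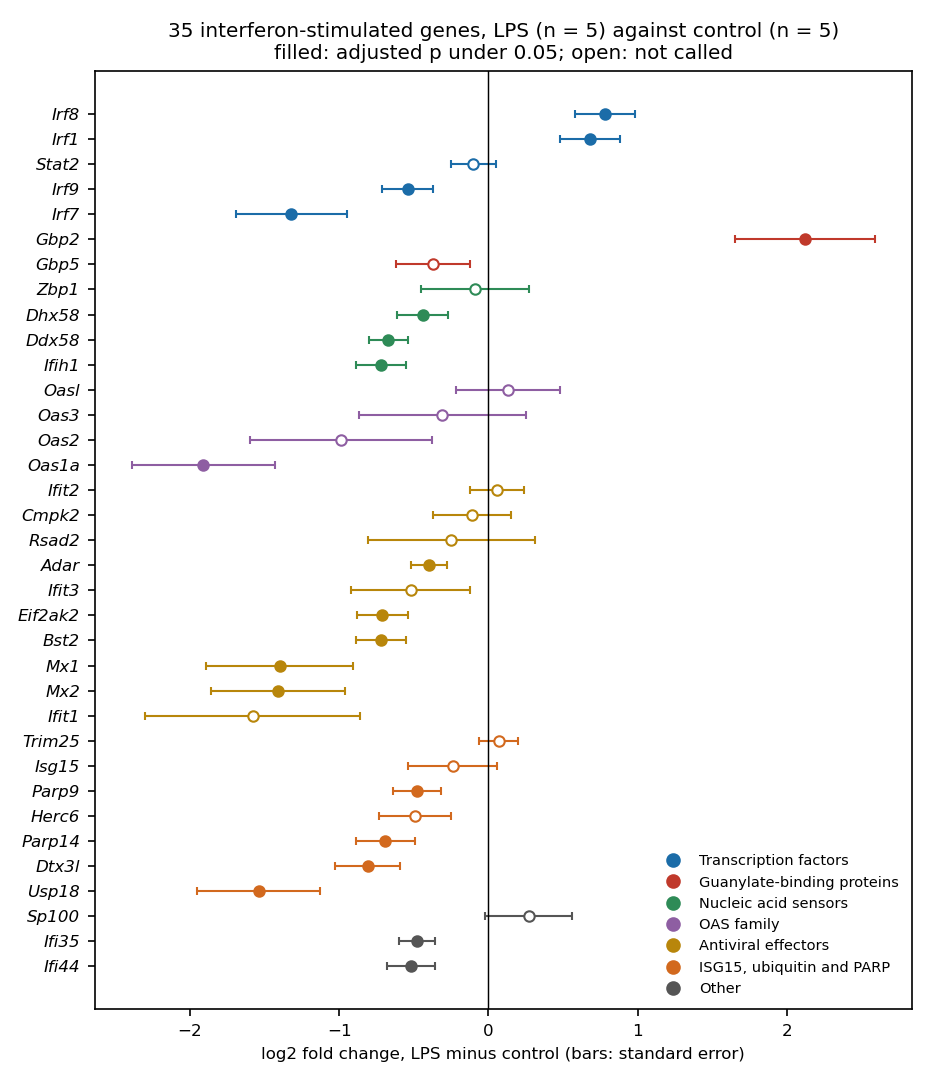
Log2 fold change of each of the 35 members in LPS against control (x axis, 0 at the vertical line) with its standard error, grouped and coloured by role. Filled points passed an adjusted p of 0.05: 3 lie to the right of 0 and 17 to the left.

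Among the transcription factors, 2 rose and 2 fell. Irf8, a factor of myeloid cells and of the response to interferon gamma, stood at 14.8, 23.2, 24.8, 25.6 and 15.5 CPM in control and at 34, 39.5, 42, 32.5 and 30.2 CPM in LPS. Every LPS library lay above every control library. Its log2 fold change was 0.78 ± 0.20 (SE, adjusted p = 0.00263). Irf1, an activator of interferon and GAS-driven genes, measured 12.2, 11.3, 16.5, 14.2 and 11.6 CPM in control and 21, 17, 27.6, 14.5 and 25.8 CPM in LPS. LPS 4 lay inside the control range and the other LPS libraries above it (log2 fold change 0.68 ± 0.20, adjusted p = 0.00704).

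Irf7, the factor that amplifies type I interferon production, was at 23.8, 42.2, 31.1, 39.8 and 38.8 CPM in control and at 16.7, 12.6, 11, 18.1 and 12 CPM in LPS. The groups did not overlap, and the log2 fold change was -1.32 ± 0.37 (adjusted p = 0.00518). Irf9, the DNA-binding part of the complex with STAT2, was at 25.4, 26.6, 21.1, 28.2 and 22.2 CPM in control and at 19.3, 15.2, 13, 22.5 and 15.2 CPM in LPS. LPS 4 lay inside the control range and the other LPS libraries lay below it (log2 fold change -0.54 ± 0.17, adjusted p = 0.0144). Stat2, its partner, was not called. Its levels were 126, 103, 74, 123 and 96.1 CPM in control and 104, 107, 72.6, 122 and 81.8 CPM in LPS, ranges that overlap almost fully (log2 fold change -0.10 ± 0.15, adjusted p = 0.656).

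The 2 guanylate-binding proteins, GTPases that attack the vacuoles of intracellular microbes, did not share a call. Gbp2 stood at 6.05, 7.86, 9.07, 12.6 and 8.13 CPM in control and at 27.4, 25.3, 44.7, 46.5 and 46.3 CPM in LPS. Every LPS library was above the highest control library, a 4.34-fold rise (log2 fold change 2.12 ± 0.47, adjusted p = 0.000717). For Gbp5 the log2 fold change was -0.37 ± 0.25 (adjusted p = 0.241).

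Of the 4 nucleic acid sensors, 3 fell. Ddx58, which encodes RIG-I, a sensor of viral RNA in the cytoplasm, was at 69, 90.4, 70.9, 88.7 and 102 CPM in control and at 53.3, 51.2, 45.1, 59.4 and 55.6 CPM in LPS. The groups did not overlap (log2 fold change -0.67 ± 0.13, adjusted p = 0.000224, the lowest among the members). Ifih1, which encodes the related sensor MDA5, fell by 0.72 ± 0.17 on the log2 scale (adjusted p = 0.00137). Dhx58, which encodes their regulator LGP2, fell by 0.44 ± 0.17 (adjusted p = 0.0418), but that call was lost in 11 of the 17 alternative fits, among them each fit without control 3, 4, 6 or 7 or without LPS 2, 3 or 5. Zbp1, a sensor of Z-form nucleic acid, was at -0.09 ± 0.36 and was not called.

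In the OAS family, whose enzymes make the messenger that activates RNase L to degrade RNA, 1 of 4 members fell. Oas1a stood at 19.2, 26, 19.6, 28 and 33.3 CPM in control and at 8.99, 5.35, 3.33, 11.9 and 3.93 CPM in LPS. No LPS library reached the lowest control library, a 3.77-fold fall (log2 fold change -1.91 ± 0.48, adjusted p = 0.00228). Oas2 and Oas3 were low and not called (-0.99 ± 0.61 and -0.31 ± 0.56), and Oasl was at 0.13 ± 0.35.

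Of the 10 antiviral effectors, 5 fell and none rose. Mx1, a GTPase that blocks viral replication, measured 4.28, 8.74, 4.84, 10.6 and 5.39 CPM in control and 2.42, 1.93, 2.74, 3.74 and 2.07 CPM in LPS. The groups did not overlap (log2 fold change -1.40 ± 0.49, adjusted p = 0.0254), though the call was lost without control 4 or 6 or without LPS 2 or 5 (adjusted p 0.0508 to 0.0718). Its paralogue Mx2 measured 37.9, 57.5, 39, 44.3 and 60.6 CPM in control and 19.5, 12.4, 8.95, 38.6 and 10.3 CPM in LPS. LPS 4 reached the control range and the other LPS libraries stayed below it (log2 fold change -1.41 ± 0.45, adjusted p = 0.013).

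Bst2 fell from 281, 195, 253, 249 and 236 CPM in control to 163, 155, 143, 155 and 123 CPM in LPS. The groups did not overlap (log2 fold change -0.72 ± 0.17, adjusted p = 0.00109). Eif2ak2, which encodes the kinase PKR that stops translation on sensing double-stranded RNA, fell by 0.71 ± 0.17 on the log2 scale (adjusted p = 0.00117). Adar, which encodes an RNA-editing enzyme, fell by 0.40 ± 0.12 (adjusted p = 0.00959).

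Ifit1, which encodes a protein that binds foreign RNA ends, was not called. It was at 5.31, 9.7, 28.2, 12.9 and 52.9 CPM in control and at 6.58, 7.08, 2.63, 11.1 and 9.03 CPM in LPS. The control libraries spanned a wide range that held 4 of the 5 LPS values (log2 fold change -1.58 ± 0.72, adjusted p = 0.0818). Ifit2, Ifit3, Rsad2 and Cmpk2 were not called either, at log2 fold changes of 0.06, -0.52, -0.25 and -0.11.

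Of the 7 genes of ISG15, ubiquitin and ADP-ribose modification, 4 fell. Usp18, which encodes the protease that removes ISG15 from proteins and dampens type I interferon receptors, was at 14.2, 26.7, 13.9, 26.5 and 26.2 CPM in control and at 10.6, 6.77, 4.29, 11.6 and 3.84 CPM in LPS. The groups did not overlap (log2 fold change -1.54 ± 0.41, adjusted p = 0.00362). Parp14, an ADP-ribosyltransferase, was at 46.2, 92.9, 56.8, 105 and 72.2 CPM in control and at 55.1, 42.4, 38.1, 47 and 48.7 CPM in LPS. The groups overlapped only at control 3, which lay below LPS 1, 4 and 5 (log2 fold change -0.69 ± 0.20, adjusted p = 0.00829).

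Dtx3l, a ubiquitin ligase that works with Parp9, fell by 0.81 ± 0.22 on the log2 scale (adjusted p = 0.00384). Parp9 itself fell by 0.48 ± 0.16 (adjusted p = 0.0202). That call did not hold without control 7, LPS 2 or LPS 3 (adjusted p 0.0645 to 0.0664). Isg15, the ubiquitin-like modifier, was at -0.24 ± 0.30, Herc6, its ligase in rodents, at -0.49 ± 0.24, and Trim25, a ubiquitin ligase that activates RIG-I, at 0.07 ± 0.13, and these 3 were not called. Of the remaining members, Ifi44 stood at 17.3, 14.8, 14.3, 15.2 and 15.3 CPM in control and at 9.07, 10.9, 12.2, 13.4 and 8.19 CPM in LPS. Its groups did not overlap (log2 fold change -0.52 ± 0.16, adjusted p = 0.0112). Ifi35 fell by 0.48 ± 0.12 (adjusted p = 0.00317), and Sp100, a nuclear body protein, was at 0.27 ± 0.29 and was not called.

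The plot of members by library shows the same levels in all 8 groups. LPS 4 was the highest of the 5 LPS libraries for 21 of the 35 members, and control 3 the lowest of the control libraries for 25. An even share would be 7 members per library. How many of all genes follow the same order is not given here, so these counts are not read as particular to the members.

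**Figure D2:**
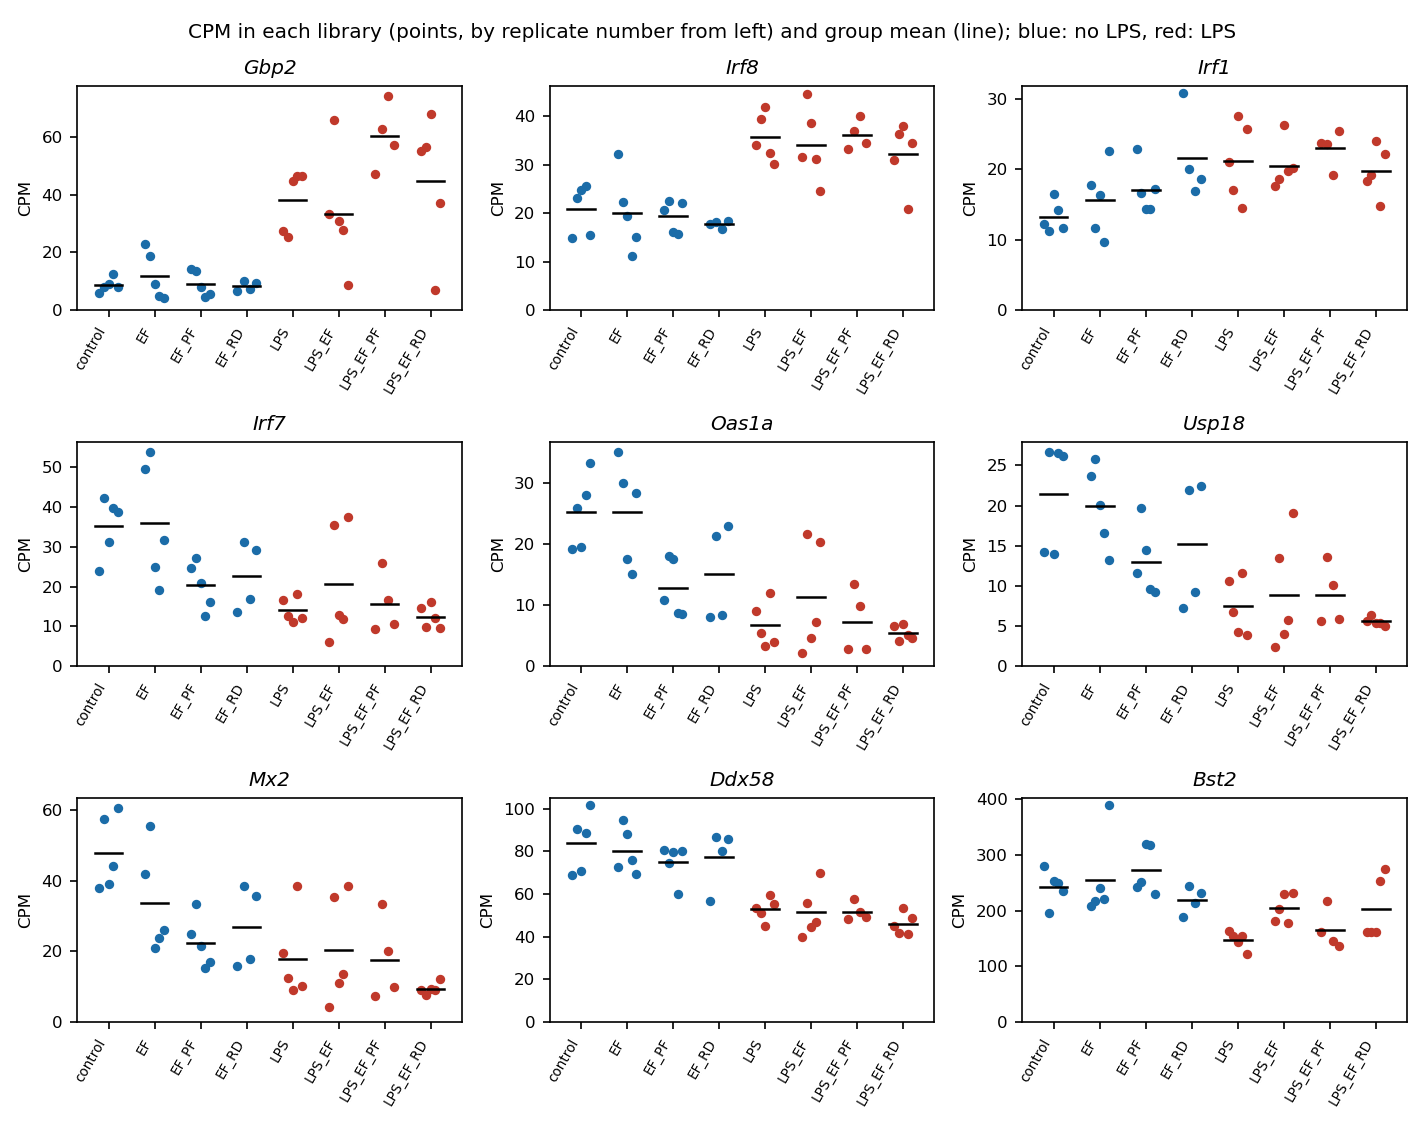
CPM (y axis, from 0) of 9 members in each library, by group on the x axis, with the group mean as a line. Blue points are libraries without LPS and red points libraries with LPS. For Gbp2, LPS_EF 7 at 8.76 CPM and LPS_EF_RD 6 at 7.06 CPM lie among the libraries without LPS.

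Levels of blood and liver cell markers also differed. In LPS against control the summed level of 14 neutrophil and monocyte markers was 30.9 to 113 CPM in control and 254 to 497 CPM in LPS, with 13 of 13 tested called higher. Kupffer cell and macrophage markers summed to 358 to 723 CPM and 688 to 1031 CPM (6 of 12 higher), and T and NK cell markers to 26.7 to 49.1 CPM and 62.8 to 102 CPM (8 of 14 higher, 1 lower). Here and below, the neutrophil and monocyte sum rested largely on Lyz2 (median 89.1 CPM over all libraries, next Cybb at 9.21). The T and NK cell sum rested largely on Cd4 (38.2 CPM, next Lck at 3.85). Neither sum is read as a level of those cells alone. Dendritic cell markers summed to 11.3 to 20.6 CPM and 22.8 to 31.9 CPM (3 of 9 higher), and B and plasma cell markers to 7.25 to 13.4 CPM and 15.4 to 31.8 CPM (4 of 8 higher). Endothelial markers summed to 209 to 467 CPM and 505 to 638 CPM (7 of 12 higher). Stellate cell and fibroblast markers summed to 374 to 718 CPM and 673 to 1094 CPM (4 of 11 higher). Hepatocyte markers summed to 171934 to 209852 CPM and 130774 to 159370 CPM (6 of 10 lower). Cholangiocyte markers summed to 14.6 to 83.5 CPM, the highest in control 5, and 12 to 16.5 CPM (3 of 6 lower). The part of these cells in the rise of Gbp2, Irf8 and Irf1 or in the fall of the other members was not tested.

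Other genes of the pathway were called too, to be read against the shares of all genes (18.6% higher and 18.1% lower). Of 15 tested genes for interferons, their receptors and signalling, 7 rose. The largest rises were those of Socs3, a feedback inhibitor of JAK kinases (log2 fold change 2.09 ± 0.63, adjusted p = 0.00935), Ifnlr1, a receptor chain for interferon lambda (1.59 ± 0.46, adjusted p = 0.00664), and Ifngr1, the ligand-binding receptor chain for interferon gamma (0.86 ± 0.15, adjusted p = 5.62e-05).

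RNA of the interferons themselves was near the limit of detection. Of 10 interferon genes in the table, 5 had a count of 0 in all 38 libraries (Ifna4, Ifna5, Ifna16l1, Ifnl1 and Ifnl3). Ifnb1 and Ifna1 had 1 count each in 1 library, and Ifng 20 counts over 13 libraries, with 4 in the LPS group and 1 in control. Ifnk had 16 counts over 11 libraries. Ifne had the most, 63 counts over 15 libraries and up to 20 in 1 library, with 28 in EF, 15 in LPS_EF_RD, 7 in control and 6 in LPS. These counts were too few for a comparison at this depth. In the smallest library a count of 0 allows up to 3 counts, or 0.152 CPM, with counting error only.

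Of 24 tested genes for nucleic acid and LPS sensing and interferon induction, 10 rose and 7 fell. Of all genes, 18.6% were called higher and 18.1% lower, shares that also apply to the next list. Tlr9, a DNA sensor of endosomes, rose by 2.72 ± 0.50 on the log2 scale (adjusted p = 9.87e-05). Tmem173, which encodes the adaptor STING, rose by 2.51 ± 0.30 (adjusted p = 9.89e-07), and Cd14, the LPS co-receptor, by 1.89 ± 0.24 (adjusted p = 1.92e-06). Of 76 tested interferon-stimulated genes outside the members, 21 rose and 27 fell. The largest changes were those of Cxcl9, from 8.06 ± 0.833 to 264 ± 60.3 CPM (log2 fold change 5.03 ± 0.64, adjusted p = 1.75e-06), Ifit1bl (2.13 ± 0.44, adjusted p = 0.000366) and Oas1g (-2.03 ± 0.54, adjusted p = 0.00383). The median log2 fold change of these 76 genes was 0.09, against -0.48 over the members.

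The LPS comparison was then repeated within each extract. Gbp2 and Irf8 rose and Ddx58 fell in all 4 comparisons of LPS with no LPS in the fit of all libraries. Usp18 and Ifi44 fell in 3, no member was called in opposite directions, and 10 members were called in none. Irf1, Irf7 and Mx1, among others, were called in LPS against control only. Oas1a was called there and in LPS_EF_RD against EF_RD, but not in the EF or EF_PF arm. The log2 fold change of Irf1 was -0.13 ± 0.21 in LPS_EF_RD against EF_RD. The log2 fold change was below 0 in all 4 comparisons for 19 members and above 0 in all 4 for 4. How many of all genes show each of these patterns is not given here, so the counts are not read as particular to the members.

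**Figure D3:**
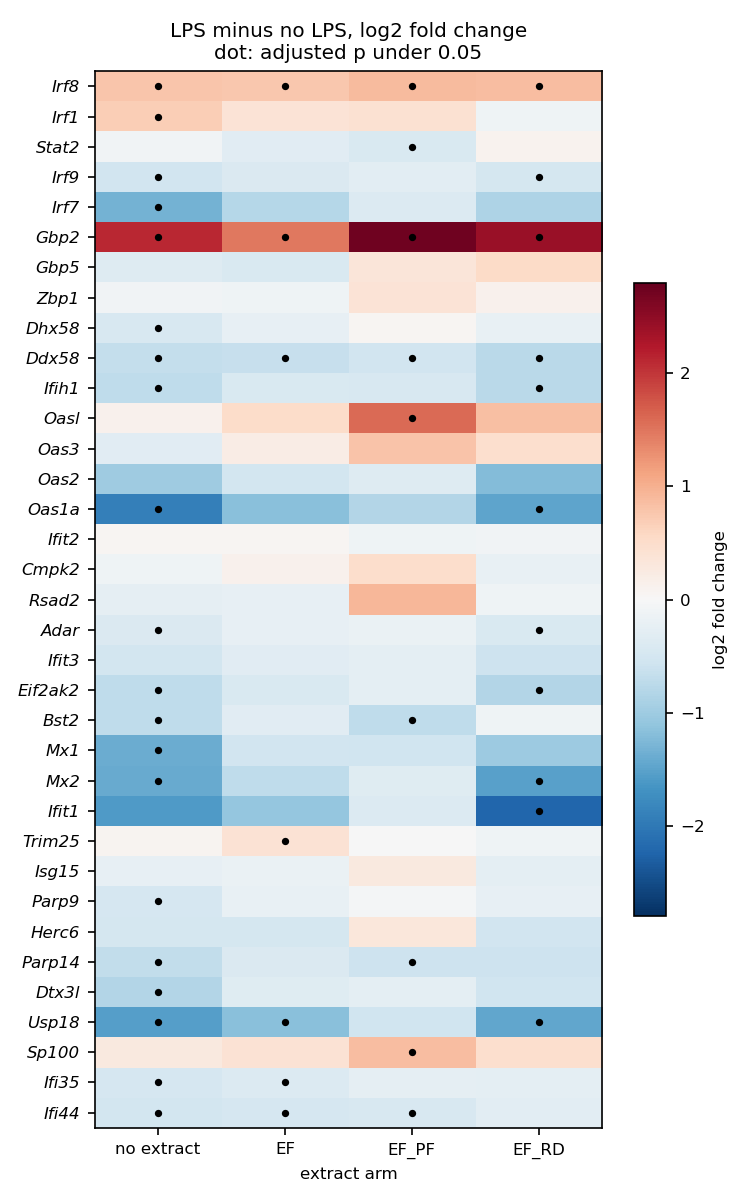
Log2 fold change of the 35 members (rows, ordered by role) in LPS against no LPS within each extract arm (columns), red for higher and blue for lower with LPS. Dots mark an adjusted p under 0.05: Gbp2, Irf8 and Ddx58 carry a dot in all 4 columns.

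In LPS_EF against EF, 3 members rose and 4 fell (8.57% and 11.4%), where 14.6% of all genes were called higher and 14.5% lower. Both shares of the members lay below those of all genes. The median log2 fold change was -0.32 over the members and -0.02 over all genes. Gbp2 was at 22.8, 18.8, 9.12, 4.93 and 4.1 CPM in EF and at 33.3, 65.7, 30.9, 27.7 and 8.76 CPM in LPS_EF. The low value is that of LPS_EF 7, and the other LPS_EF libraries lay above every EF library. With LPS_EF 7 included, the log2 fold change of Gbp2 was 1.48 ± 0.46 (adjusted p = 0.0148), though the call was lost without LPS_EF 4 (adjusted p = 0.084). Irf8 was at 32.3, 22.4, 19.5, 11.2 and 15.1 CPM in EF and at 31.7, 44.6, 38.7, 31.1 and 24.5 CPM in LPS_EF. EF 1 overlapped the LPS_EF range (log2 fold change 0.76 ± 0.20, adjusted p = 0.00439). With only the EF and LPS_EF libraries in the fit, neither Gbp2 (adjusted p = 0.0895) nor Irf8 (adjusted p = 0.0645) was called. Usp18 (adjusted p = 0.117) and Ifi44 (adjusted p = 0.0984), described next, were not called in that fit either.

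Trim25 was at 38.9, 34.3, 50, 40.3 and 36.2 CPM in EF and at 46, 49, 58, 52.5 and 60.5 CPM in LPS_EF. Only EF 3 reached the LPS_EF range (log2 fold change 0.41 ± 0.13, adjusted p = 0.0145). Usp18 was at 23.7, 25.8, 20.1, 16.6 and 13.2 CPM in EF and at 2.33, 13.4, 3.99, 5.68 and 19.1 CPM in LPS_EF. LPS_EF 4 and 7 lay within the EF range and the other LPS_EF libraries below it (log2 fold change -1.16 ± 0.40, adjusted p = 0.029), and the call was lost without EF 1 or 2 or without LPS_EF 3, 5 or 6 (adjusted p 0.0514 to 0.0924). Ddx58 was at 72.9, 95, 88, 76.1 and 69.4 CPM in EF and at 40.1, 56, 44.7, 46.8 and 69.9 CPM in LPS_EF. LPS_EF 7 was again the one library inside the EF range (log2 fold change -0.64 ± 0.13, adjusted p = 0.000583).

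Ifi44 was at 15.7, 17.1, 12.4, 11.5 and 14.4 CPM in EF and at 7.97, 12.4, 8.18, 8.77 and 13.9 CPM in LPS_EF, with LPS_EF 4 and 7 in the EF range. Its log2 fold change was -0.47 ± 0.16 (adjusted p = 0.0241), a call lost without EF 2 or without LPS_EF 3, 5 or 6 (adjusted p 0.066 to 0.0823). Ifi35 fell by 0.38 ± 0.12 on the log2 scale (adjusted p = 0.0214). That call did not hold without EF 5 or LPS_EF 3 (adjusted p = 0.0973 and 0.0642). The type I response genes split the LPS_EF libraries: Mx2 was at 35.3 CPM in LPS_EF 4 and 38.4 in LPS_EF 7, and at 4.24, 11.1 and 13.5 CPM in LPS_EF 3, 5 and 6. LPS_EF 4 had a full Cxcl9 level of 432 CPM and LPS_EF 7 did not. The 14 neutrophil and monocyte markers summed to 93.5 CPM in LPS_EF 7 and to 274 to 381 CPM in the other LPS_EF libraries, and their part in these differences was not tested. The count of called members was 15 without LPS_EF 7, 4 without LPS_EF 3, and 16 (3 higher, 13 lower) without the 5 libraries that stood apart. The number of all genes called in these fits is not given here, so the changes are not read as particular to the members. Under total-count scaling 3 members were higher and 2 lower.

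In LPS_EF_PF against EF_PF, 4 members rose and 5 fell (11.4% and 14.3%), where 19.2% of all genes were called higher and 17.3% lower. Here too both shares of the members lay below those of all genes. The median log2 fold change was -0.25 over the members and -0.02 over all genes. Gbp2 was at 14.1, 13.4, 7.93, 4.68 and 5.6 CPM in EF_PF and at 47.1, 62.8, 74.1 and 57.1 CPM in LPS_EF_PF. The groups were far apart (log2 fold change 2.72 ± 0.49, adjusted p = 7.3e-05). Irf8 was at 20.7, 22.6, 16.2, 15.7 and 22.1 CPM in EF_PF and at 33.2, 36.9, 40.1 and 34.5 CPM in LPS_EF_PF, with no overlap (log2 fold change 0.89 ± 0.21, adjusted p = 0.00121).

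Oasl, which encodes an OAS-like protein, was at 2.6, 3.57, 2.93, 1.26 and 2.21 CPM in EF_PF and at 4.75, 11.5, 8.62 and 5.33 CPM in LPS_EF_PF. Every LPS_EF_PF library was higher (log2 fold change 1.59 ± 0.38, adjusted p = 0.00134). Sp100 rose by 0.87 ± 0.30 on the log2 scale (adjusted p = 0.0249), a call lost without EF_PF 3 or 6 or LPS_EF_PF 3 or 6 (adjusted p 0.0568 to 0.0664). Bst2 was at 243, 251, 320, 317 and 230 CPM in EF_PF and at 161, 218, 145 and 137 CPM in LPS_EF_PF. The groups did not overlap (log2 fold change -0.72 ± 0.18, adjusted p = 0.00187).

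Ddx58 was at 80.6, 74.7, 79.7, 60.2 and 80.1 CPM in EF_PF and at 48.1, 57.7, 51.8 and 49.5 CPM in LPS_EF_PF, without overlap (log2 fold change -0.54 ± 0.14, adjusted p = 0.00347). Parp14 was at 53.7, 66.8, 58.2, 46.6 and 56.7 CPM in EF_PF and at 39.8, 38.2, 29 and 45 CPM in LPS_EF_PF. The groups met closely without overlapping (log2 fold change -0.57 ± 0.22, adjusted p = 0.039). Ifi44 (-0.44 ± 0.17, adjusted p = 0.0424) and Stat2 (-0.43 ± 0.16, adjusted p = 0.0409) also fell. The calls of Parp14, Ifi44 and Stat2 were lost in 6 to 9 of 16 alternative fits. For Parp14 these included the fits without EF_PF 2, 3 or 6 or without LPS_EF_PF 1, 3 or 4, for Ifi44 those without EF_PF 1, 2 or 3 or without LPS_EF_PF 1, 4 or 6, and for Stat2 those without EF_PF 2 or 3 or without LPS_EF_PF 1 or 6. Under total-count scaling 5 members were higher and 2 lower. LPS_EF_PF 3 was the highest of its group for 25 of the 35 members, against an even share of 8.75, and the order over all genes is not given here. In this comparison the neutrophil and monocyte markers summed to 24 to 51 CPM in EF_PF and 278 to 439 CPM in LPS_EF_PF (13 of 13 higher), and the Kupffer cell and macrophage markers to 356 to 770 CPM and 999 to 1209 CPM (8 of 12 higher). Hepatocyte markers summed to 168652 to 199774 CPM and 136594 to 149291 CPM (7 of 10 lower), and the part of these cells was not tested.

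In LPS_EF_RD against EF_RD, 2 members rose and 9 fell (5.71% and 25.7%), where 12.8% of all genes were called higher and 10.7% lower. The share of members was below that of all genes for rises and above it for falls. The median log2 fold change was -0.28 over the members and -0.02 over all genes. Gbp2 was at 6.66, 10.2, 7.31 and 9.32 CPM in EF_RD and at 55.1, 56.6, 68, 7.06 and 37.2 CPM in LPS_EF_RD. The low value is that of LPS_EF_RD 6, which lay inside the EF_RD range (log2 fold change 2.42 ± 0.52, adjusted p = 0.00123). Irf8 was at 17.7, 18.1, 16.8 and 18.3 CPM in EF_RD and at 31, 36.4, 38.1, 20.9 and 34.4 CPM in LPS_EF_RD. LPS_EF_RD 6 was again the lowest of its group, above the EF_RD libraries (log2 fold change 0.86 ± 0.21, adjusted p = 0.00432). The neutrophil and monocyte markers summed to 123 CPM in LPS_EF_RD 6 and to 276 to 500 CPM in the other LPS_EF_RD libraries, and their part was not tested.

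Members that fell here varied within EF_RD. Oas1a was at 8, 21.3, 8.32 and 22.9 CPM in EF_RD and at 6.58, 4.08, 6.87, 5.09 and 4.59 CPM in LPS_EF_RD. EF_RD 2 and 4 were high and EF_RD 1 and 3 close to the LPS_EF_RD libraries (log2 fold change -1.47 ± 0.50, adjusted p = 0.0322). Mx2 was at 15.9, 38.6, 17.8 and 35.6 CPM in EF_RD and at 8.97, 7.75, 9.23, 9.07 and 12.2 CPM in LPS_EF_RD, with the same EF_RD pair high (log2 fold change -1.52 ± 0.47, adjusted p = 0.0195). Ifit1 was at 0.216, 36.5, 3.65 and 36.6 CPM in EF_RD and at 3.5, 3.77, 7.24, 0.265 and 5.56 CPM in LPS_EF_RD. The groups overlapped, and the difference rested on EF_RD 2 and 4 (log2 fold change -2.23 ± 0.77, adjusted p = 0.0339).

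Ddx58 was at 56.7, 86.8, 80 and 85.7 CPM in EF_RD and at 45, 41.6, 53.3, 41.4 and 48.9 CPM in LPS_EF_RD. It did not overlap between the groups (log2 fold change -0.75 ± 0.14, adjusted p = 0.000392). The other called members were Usp18 (-1.45 ± 0.43, adjusted p = 0.0144), Eif2ak2 (-0.82 ± 0.18, adjusted p = 0.00125), Ifih1 (-0.76 ± 0.18, adjusted p = 0.00298), Irf9 (-0.49 ± 0.18, adjusted p = 0.0471) and Adar (-0.42 ± 0.13, adjusted p = 0.0177). Without EF_RD 2, and likewise without EF_RD 4, the count fell to 5 members, with Gbp2, Irf8, Ddx58, Eif2ak2 and Ifih1 kept in both. The calls of Irf9, Oas1a and Ifit1 were also lost in some fits without an LPS_EF_RD library: 1, 2, 4 or 8 for Irf9, 2 or 8 for Oas1a, and 1, 2 or 6 for Ifit1.

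Genes of the other pathway lists were called in each extract arm, to be read against the shares of all genes given above (14.6%, 19.2% and 12.8% higher and 14.5%, 17.3% and 10.7% lower for EF, EF_PF and EF_RD). Of the 15 genes for interferons, receptors and signalling, 5 rose in LPS_EF against EF, 6 in LPS_EF_PF against EF_PF and 4 in LPS_EF_RD against EF_RD. Of the 24 sensing genes, 5, 9 and 7 rose and 2, 2 and 1 fell in the same order. Of the 76 other interferon-stimulated genes, 11, 24 and 19 rose and 16, 10 and 19 fell. Cxcl9 rose in all 3, by 5.01 ± 0.64, 4.91 ± 0.64 and 5.08 ± 0.70 on the log2 scale.

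Whether an extract changed the response to LPS was tested as an interaction, the LPS difference with the extract minus that without it. No member was called by edgeR or by DESeq2 in any of the 3 interactions. Of all genes, 0.108% were called for EF, 0.0812% for EF_PF and 0.128% for EF_RD. At an unadjusted p under 0.05 stood 0 members for EF, 2 for EF_PF and 3 for EF_RD. The share of all genes at that threshold is not given here or below, so such counts are not read as particular to the members. The lowest adjusted p-values were 0.745, 0.753 and 0.454. Median interactions for EF, EF_PF and EF_RD were 0.20, 0.49 and 0.12 over the members and -0.01, 0.01 and 0.00 over all genes. They lay above 0 for 29, 30 and 21 of the 35 members. The 3 interactions share the LPS and control libraries, and the medians were not tested. The lowest unadjusted p-values belonged to Oasl for EF_PF (1.46 ± 0.51 on the log2 scale, approximate 95% interval 0.46 to 2.46) and Irf1 for EF_RD (-0.82 ± 0.29, -1.38 to -0.26), with Gbp5 for EF_RD at 0.91 ± 0.36 (0.20 to 1.62). For Gbp2 the interactions were -0.64 ± 0.64, 0.60 ± 0.66 and 0.30 ± 0.66, and for Oas1a 0.75 ± 0.66, 1.11 ± 0.68 and 0.44 ± 0.69. The median standard error of a member in these tests was 0.34 to 0.35, so only differences well above that size could pass.

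Each extract was next compared with control in the absence of LPS, and these 3 comparisons share the control libraries. EF against control called 0 members by edgeR and by DESeq2, with 0.92% of all genes called. No member reached an unadjusted p under 0.05, and the lowest adjusted p was 0.705. The EF libraries differed among themselves: Gbp2 was at 22.8 and 18.8 CPM in EF 1 and 2 and at 9.12, 4.93 and 4.1 CPM in EF 3 to 5. Mx1 was at 10.5, 14.3, 3.44, 2.52 and 2.03 CPM in the same order, so that EF 1 and 2 were again the high pair. The neutrophil and monocyte markers summed to 173 CPM in both EF 1 and EF 2 and to 25.2 to 52 CPM in the other EF libraries, and their part was not tested. Outside the members, Ifi47, an interferon-inducible GTPase, was called higher with EF (1.92 ± 0.46, adjusted p = 0.0341, SD of 40.8 CPM around a mean of 42.9).

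EF_PF against control called 0 members with edgeR, and 0.622% of all genes. At an unadjusted p under 0.05 stood 10 members, without the share of all genes at that threshold to set beside them. The median log2 fold change was -0.32 over the members and -0.02 over all genes. Oasl was at 2.37, 8.4, 5.53, 6.34 and 6.65 CPM in control and at 2.6, 3.57, 2.93, 1.26 and 2.21 CPM in EF_PF. Control 3 lay among the EF_PF libraries and the other control libraries above them (log2 fold change -1.22 ± 0.36, adjusted p = 0.112, and 0.0438 with DESeq2, where it was the 1 member called). With only these groups in the fit, Mx2 (adjusted p = 0.0451) and Herc6 (adjusted p = 0.0487) were called lower. Trim25 was at 25.1, 41.6, 43.6, 43.2 and 43.6 CPM in control and at 54.4, 53.2, 49.3, 54.8 and 57.1 CPM in EF_PF. The EF_PF libraries all lay above the control libraries (log2 fold change 0.45 ± 0.13), but the adjusted p was 0.0952.

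EF_RD against control called 0 members with edgeR, and 1.52% of all genes. At an unadjusted p under 0.05 stood 3 members. Irf1 was at 12.2, 11.3, 16.5, 14.2 and 11.6 CPM in control and at 30.8, 20.1, 16.9 and 18.6 CPM in EF_RD. Each EF_RD library was above each control library, with the highest value in EF_RD 1, the library with muscle markers (log2 fold change 0.72 ± 0.21, adjusted p = 0.0691). DESeq2 called Irf1 (adjusted p = 0.0406), as did total-count scaling (0.0439) and the fit without EF_RD 3 (0.049). Oasl was at -0.98 ± 0.38 and Trim25 at 0.38 ± 0.13, neither called. Outside the members, Il10rb, a receptor chain for interferon lambda and interleukin 10, was called higher (0.43 ± 0.11, adjusted p = 0.0337).

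With LPS in both groups, each extract was compared with LPS alone, and these 3 comparisons share the LPS libraries. They called 0 members by edgeR and by DESeq2, with 0.108% of all genes called in LPS_EF against LPS, 0.0406% in LPS_EF_PF against LPS and 0.0135% in LPS_EF_RD against LPS. At an unadjusted p under 0.05 stood 2, 2 and 3 members, and the lowest adjusted p-values were 0.287, 0.612 and 0.474. Trim25 was at 42.1, 41.6, 42.1, 37.6 and 43.3 CPM in LPS and at 46, 49, 58, 52.5 and 60.5 CPM in LPS_EF. All LPS_EF libraries lay above all LPS libraries, yet the adjusted p was 0.287 (log2 fold change 0.36 ± 0.13, approximate 95% interval 0.11 to 0.61). Bst2 was at 0.47 ± 0.17 in LPS_EF against LPS (adjusted p = 0.291) and at 0.45 ± 0.17 in LPS_EF_RD against LPS (adjusted p = 0.474).

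For Gbp2, the difference from LPS was -0.19 ± 0.44 with EF, 0.67 ± 0.47 with EF and PF and 0.24 ± 0.44 with EF and RD on the log2 scale. The approximate 95% intervals were -1.06 to 0.68, -0.25 to 1.58 and -0.63 to 1.11. For Ddx58, the tighter values were -0.04 ± 0.13, -0.03 ± 0.14 and -0.20 ± 0.13, with intervals from -0.30 to 0.22, -0.31 to 0.24 and -0.46 to 0.06. These intervals show the changes that the data leave possible.

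**Figure D4:**
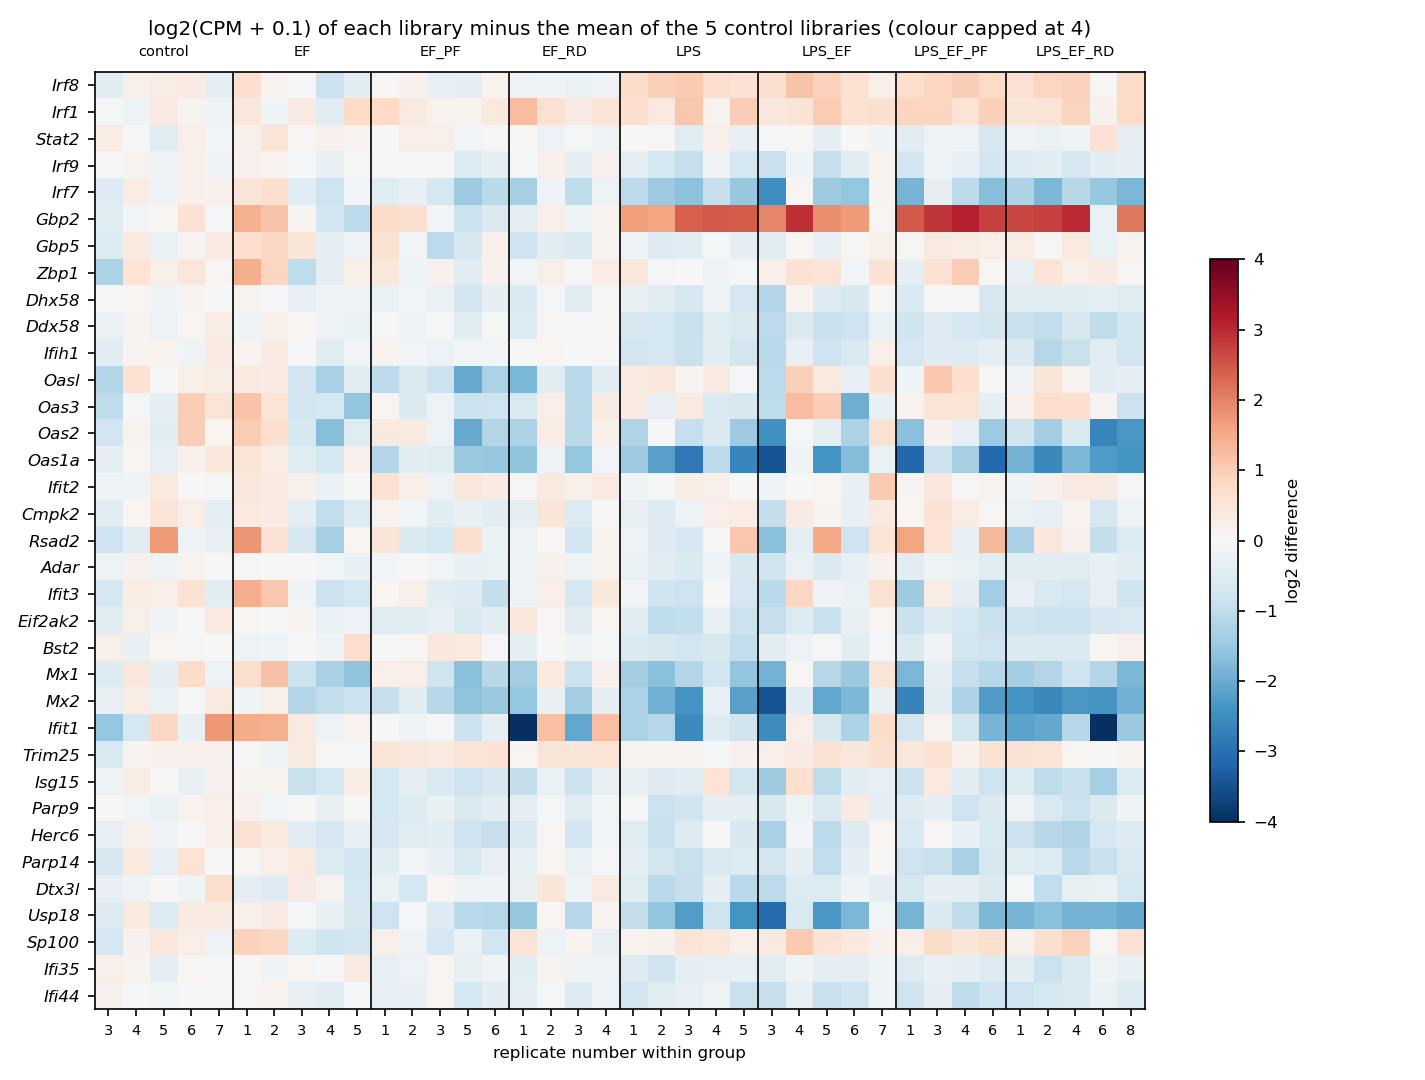
Each of the 35 members (rows) in each of the 38 libraries (columns, by group and replicate number), as log2(CPM + 0.1) minus the mean of the 5 control libraries, red for higher and blue for lower. Gbp2 is near its control level in LPS_EF 7 and LPS_EF_RD 6, and Oas1a, Mx2 and Usp18 are closer to their control level in LPS_EF 4 and 7 than in LPS_EF 3, 5 and 6.

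Some members are uncertain because of how reads were counted. Reads that map to several places were left out, which touches the near-identical copies in the Oas1, Mx, Ifit, Gbp and Oasl families. Exons of Mx2 share 56 of 6715 bases with Tmprss2 on the other strand, and no other member shares exon bases with another gene. In the deposited annotation (rn6), Gbp2 lies at chr2:248276795-248293784, Oas1a at chr12:41200680-41211393, Irf8 at chr19:54314859-54336643 and Ddx58 at chr5:56486584-56536898, and the counts are of their exons.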

How the data were processed

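RNA from 38 rat livers was sequenced in 8 groups, which were taken from the treatment labels. The authors deposited counts of read pairs per gene, made with featureCounts 2.0.6, an rn6 RefSeq annotation and no strand or multi-mapping option, per the file headers. STAR, RSEM and the build mRatBN7.2 are also named in the submitters' processing notes, and positions are printed as rn6 because the count table's header names it. The deposited TPM values equal length-scaled counts (31011 matched genes, 432813 values of 1 TPM or more, largest difference 0.0495%, tolerance 1%), and were used only to order levels. All columns were mapped to samples.

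Counts were tested with edgeR 4.0.16 (R 4.3.3): filterByExpr (minimum count 10, minimum total 15) left 14786 genes, libraries were scaled by TMM, and a quasi-likelihood model took all 38 libraries, with a mean for every group. Two-sided p-values received Benjamini-Hochberg adjustment inside each of 13 comparisons. CPM are the deposited counts after TMM scaling. The SE is the absolute log2 fold change divided by the square root of the quasi-likelihood F statistic. Approximate intervals are the estimate ± 1.96 SE. They are slightly narrower than the test and can leave out 0 where the unadjusted p is just above 0.05. Fits were tested on simulated data. Libraries held 19716622 to 35835012 read pairs without molecular identifiers, so counts are not independent molecules.

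Alternatives were DESeq2 1.42.0, other scalings, no filter, only the groups compared, a replicate block, and each library left out; leaving out 5 libraries was chosen after seeing the data. The members and gene lists were chosen with earlier results of these data known. Values per library are given for Irf1, Irf7, Irf9, Stat2 and the called members with the largest changes (5 each way in LPS against control, 3 each way elsewhere), and members named beside them were chosen after their values were seen. A gene of the pathway outside the members is not reported here. Promoter windows are RefSeq's (GRCr8), matched by symbol.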

Additional observations from a re-analysis of the deposited data

Results flagged for a closer look

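Of 136 sets of 4 or 5 libraries examined for 17 members, 4 held a library that stood far from the rest by Dixon's criterion at the 95% level, which flags about 1 set in 20 by chance. Stat2 was at 146 CPM in EF 2, against 106 to 117 CPM in the other EF libraries. It was also at 153 CPM in LPS_EF_RD 6, against 80.7 to 93.6 CPM in the other libraries of that group. Bst2 was at 389 CPM in EF 5, against 209 to 241 CPM in the other EF libraries. Trim25 was at 25.1 CPM in control 3, against 41.6 to 43.6 CPM in the other control libraries, and this low value enters each comparison of Trim25 with control.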

How the results depend on the processing

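In LPS against control the count of 20 called members stayed within 15 to 22 over all alternatives. In LPS_EF against EF (7 members) it was 3 with only the groups compared in the fit, 11 with the replicate block, 16 without the 5 libraries that stood apart, and 4 to 15 when single libraries were left out. In LPS_EF_RD against EF_RD (11 members) leaving out single libraries gave 5 to 13. In EF_PF against control (0 members) DESeq2 called 1 and the fit of only those groups 2. In EF_RD against control (0 members) DESeq2, total-count scaling and the fit without EF_RD 3 each called 1. Without the 5 libraries that stood apart, the other LPS comparisons gave 19, 10 and 13 members (no extract, EF_PF, EF_RD). The causes were not tested. The number of all genes called under each alternative is not given beside these counts, so their changes are not read as particular to the members. Of the 47 calls of members in the LPS comparisons, 24 were kept under every alternative and 23 were lost under at least 1, with 0 reversed. Replicate numbers were not taken to pair the samples, since in no comparison with 3 pairs did every pair of deviations correlate above 0.1: the range was -0.247 to 0.021 in LPS against control, -0.107 to 0.138 in EF_PF against control and -0.154 to 0.253 in LPS_EF_RD against LPS. EF_RD against control has 2 pairs, at 0.164 and 0.197. Under the block Trim25 was not called in LPS_EF against EF (adjusted p = 0.0565). The replicate block gave 17, 11, 12 and 10 called members in the 4 LPS comparisons and 0 in each of the others. Members under 1 TPM (Oas2, Oas3 and Zbp1) had standard errors that allow only large changes to be seen.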

Other observations

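Ifit1 was close to 0 in libraries where its neighbours were not. It had 5 counts in EF_RD 1 (0.216 CPM) and 5 counts in LPS_EF_RD 6 (0.265 CPM). In the same libraries Ifit2 was at 15.6 and 19.3 CPM and Ifit3 at 4.41 and 4.03 CPM. Ifit1 reached 52.9 CPM in control 7 and 36.5 and 36.6 CPM in EF_RD 2 and 4.

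Cxcl10, a chemokine often induced together with Cxcl9, moved opposite to it. It fell from 2.56 ± 0.573 CPM in control to 0.904 ± 0.309 CPM in LPS (SD, n = 5 each, log2 fold change -1.50 ± 0.33, adjusted p = 0.000798 in edgeR), while Cxcl9 rose. All 5 LPS libraries (0.673, 0.948, 1.41, 0.857 and 0.633 CPM) lay below all 5 control libraries (2, 3.03, 1.91, 3.13 and 2.74 CPM). It was singled out after its values were seen.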
